A study of Mus musculus with 24 samples.

Results

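The subject is a set of 41 genes of lung endothelium, the cell layer that lines blood and lymph vessels. They were chosen by a fixed list of names, set with earlier results of these data known. Their values were read from the deposited array values by the platform's gene names. For each gene the spot with the highest mean over all samples was taken. All 41 were found among 20738 named genes and all passed the filter on low values, which left 16519 genes for testing. By their usual expression 24 were general endothelial genes, 9 capillary, 5 of arteries and large vessels, 2 of sprouting tip cells and 1 lymphatic. Some have wider use, since Thbd and Kdr are not limited to capillaries and Bmpr2, Podxl and Lyve1 are also made by other cells.

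The study measured lung RNA of female C57BL/6 mice, 7 to 8 weeks old, after 6 carbon nanomaterials. The labels call the materials fullerene, Graphite, SES, BayTubes, tCNT and rCNT. The last 3 are carbon nanotubes, and the meaning of SES is not given in the sources used here. Mice received 10 µg of a material a day in 50 µl of PBS by oropharyngeal aspiration, in which a droplet placed at the back of the throat is inhaled, for 4 days, and Ctrl mice received PBS alone. Lungs were collected 24 h later and the RNA of 2 mice was pooled per sample, giving 3 pools each for Ctrl, rCNT, tCNT and SES and 4 each for BayTubes, Graphite and fullerene. No genotype was altered in any group, and every group shares the aspiration procedure.

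Endothelial cells form the wall of every lung capillary and share it with the flat alveolar type 1 cells, across which gas is exchanged. They are recognised by junction proteins such as Cdh5 and Pecam1, by the receptors for vascular endothelial growth factor (VEGF), for angiopoietins and for BMP9, and by transcription factors of the ETS and SOX families that switch these genes on. In whole lung RNA a change in such genes can reflect, among other things, fewer endothelial cells or less RNA per cell. These cannot be told apart here.

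Signals are given as log2 values, so a difference of 1 is a 2-fold change. The 24 samples were measured on 12 two-dye arrays on 3 slides, 2 samples to an array, and their number limits the precision. Residuals of samples sharing an array correlated at r = 0.399 to 0.870 across genes, the highest on the array of rCNT 4 and Graphite 16, which also had the largest residual SD (0.495 and 0.430, against 0.160 to 0.389 in the other samples). The endothelial label was borne out by the defining genes: Pecam1, Cdh5, Kdr, Tie1, Cldn5 and Ramp2 lay at or above 9.88 in every sample, where the filter level was 5.69 to 5.75. Lung genes were abundant too, with Ctrl means of 17.6 for the surfactant gene Sftpc and 14.5 for the type 1 cell gene Ager.

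Endothelial genes were lower after rCNT than in any other group. Of the 41 genes, 27 were lower than in Ctrl and 0 were higher at a limma adjusted p under 0.05, and 0 of 41 were higher at an unadjusted p under 0.05 (31 were lower). Across all genes tested, 9.41% were lower and 12.4% were higher in the same comparison by adjusted p. By unadjusted p, 2751 of all 16519 genes were lower and 2980 higher. The median difference of the 41 genes was -0.76 against -0.02 for all genes, and 39 of the 41 estimates were below 0. In 28 genes every rCNT sample lay below every Ctrl sample, an order that held for 15.9% of all genes. The p-values measure the spread between pools of mice.

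The mean log2 signal of the 41 genes showed the same order by sample. It was 12.81, 12.74 and 12.83 in Ctrl 1 to 3, and 11.89, 12.21 and 12.15 in rCNT 4 to 6. The lowest and highest samples were 12.35 and 12.61 after tCNT, 12.64 and 12.76 after SES, 12.31 and 12.63 after BayTubes, 12.37 and 12.78 after Graphite, and 12.61 and 12.77 after fullerene. All rCNT samples were thus below all 21 others, and every Ctrl sample was above all rCNT, tCNT and BayTubes samples.

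**Figure D1:**
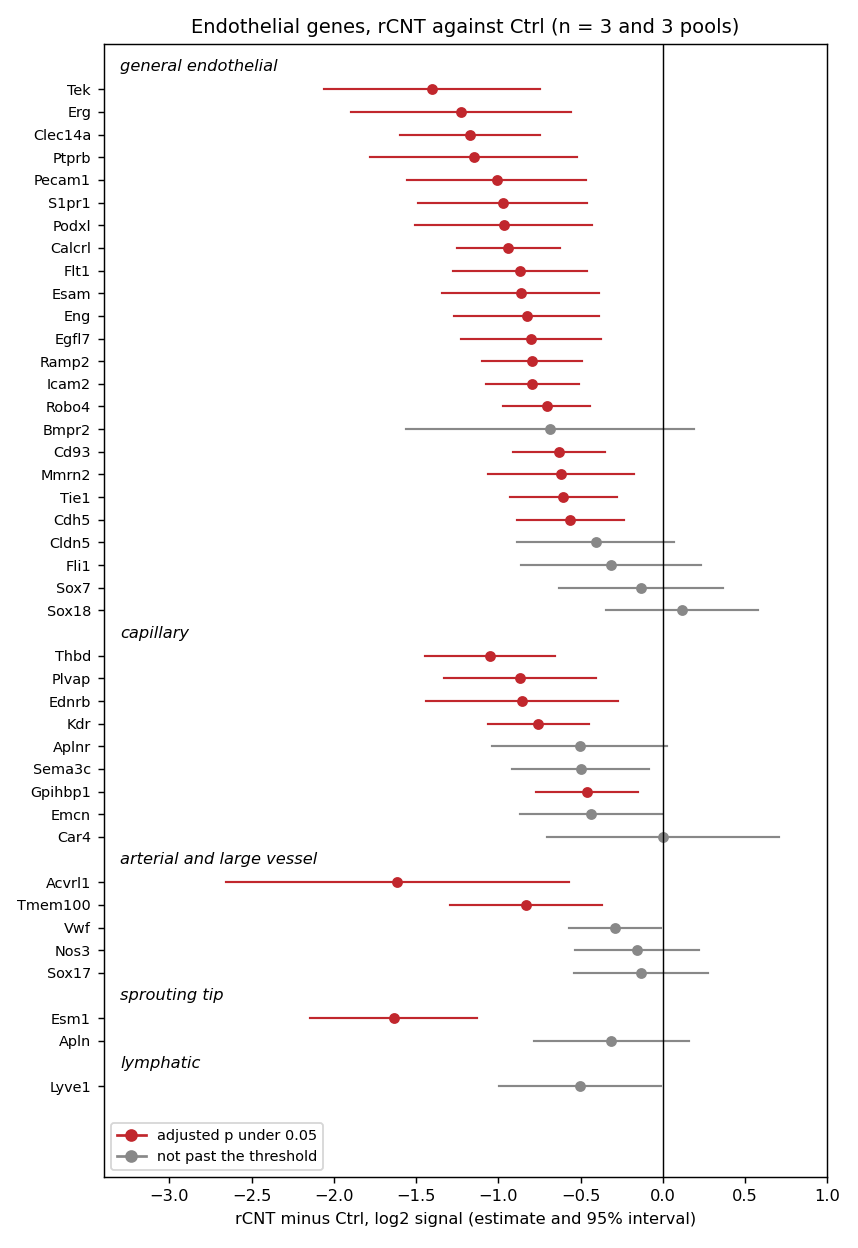
The horizontal axis is the rCNT minus Ctrl difference in log2 signal for each of the 41 genes, grouped by class on the vertical axis; points are limma estimates and lines 95% intervals, red where the adjusted p was under 0.05 (n = 3 and 3 pools). Most general endothelial genes lie between -0.5 and -1.5, while Vwf, Nos3, Sox17, Sox7, Sox18 and Car4 lie between -0.29 and 0.12.

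Many endothelial promoters carry short words read by ETS factors. To let these words be seen, promoters are shown of 3 genes that hold one and were lower after rCNT. They are the 250 bases before a listed start of transcription of Eng, a BMP9 co-receptor, Flt1, a VEGF receptor, and Robo4, a guidance receptor. They are read 5′ to 3′ in the direction of the gene from RefSeq (GRCm38.p6). For Flt1 and Robo4 the listed start is not the outer edge of the annotated gene, which lies at 147726438 and 37401902. The Flt1 stretch lies inside the annotated gene, and the Robo4 stretch runs past that edge. Capitals mark the word AGGAAG, or CTTCCT where it stands on the opposite strand.
Eng, chr2:32646345-32646594, plus strand: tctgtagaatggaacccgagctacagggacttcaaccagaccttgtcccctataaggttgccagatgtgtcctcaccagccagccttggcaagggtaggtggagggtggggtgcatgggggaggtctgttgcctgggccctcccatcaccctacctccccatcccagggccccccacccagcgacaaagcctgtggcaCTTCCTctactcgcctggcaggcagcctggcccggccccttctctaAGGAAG
Flt1, chr5:147726012-147726261, minus strand: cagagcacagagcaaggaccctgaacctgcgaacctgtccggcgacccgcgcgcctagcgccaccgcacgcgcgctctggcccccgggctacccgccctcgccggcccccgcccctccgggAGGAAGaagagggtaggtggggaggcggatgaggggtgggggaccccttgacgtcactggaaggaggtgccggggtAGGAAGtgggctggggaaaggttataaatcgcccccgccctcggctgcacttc
Robo4, chr9:37401722-37401971, plus strand: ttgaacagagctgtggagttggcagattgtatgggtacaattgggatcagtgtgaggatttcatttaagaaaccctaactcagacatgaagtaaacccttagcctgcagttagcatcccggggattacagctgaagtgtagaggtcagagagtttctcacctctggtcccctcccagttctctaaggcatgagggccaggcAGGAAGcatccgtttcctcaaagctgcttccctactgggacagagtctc
In Eng the word nearest to the listed start began 6 bases before it, in Flt1 53 bases and in Robo4 49 bases. Promoters of 18 of the 41 genes, 22 in all, were matched in that table. AGGAAG was found on either strand in 50% of them, against 29.5% of all 32851 promoters of the same length, and the second ETS-type word searched, CCGGAA, in 9.09% against 12%. Neither word was found in the promoters of Esm1, Tek and Clec14a, which were lower after rCNT. AGGAAG was present in those of Bmpr2, Emcn and Apln, which did not pass. The 2 words differ but can share a base at their ends, some promoters hold both, and a match is a description of the letters only.

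Among the secreted factors, Esm1 had the largest fitted fall of all 41 genes, although Acvrl1 fell further by plain group means (14.51 to 12.65, against 12.21 to 10.61). Esm1 encodes endocan, a proteoglycan secreted by sprouting tip cells under VEGF. It stood at 12.08, 12.13 and 12.43 in Ctrl 1 to 3 and at 10.78, 10.44 and 10.61 in rCNT 4 to 6. The groups were far apart, with the highest rCNT sample more than 1 log2 unit below the lowest Ctrl sample. The difference was -1.64 ± 0.24 (SE; 95% interval -2.14 to -1.13), or 32.1% of Ctrl, with a limma adjusted p of 7.88e-05. Differences and percentages of Ctrl are those of the fit, which allows for dye and array, and can depart from the difference of the plain means. Apln, the other tip cell gene and the ligand of the apelin receptor, did not pass: it was 11.35, 10.99 and 11.33 in Ctrl and 10.73, 10.77 and 11.12 in rCNT, and the groups overlapped (-0.31 ± 0.22, adjusted p = 0.341).

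Egfl7, a secreted protein that guides vessel tube formation, was 15.94, 15.94 and 16.30 in Ctrl and 14.54, 15.69 and 15.12 in rCNT. All rCNT samples were lower, with rCNT 4 lowest (-0.80 ± 0.20, adjusted p = 0.00744). Mmrn2, an extracellular ligand of Cd93 and Clec14a, was 12.78, 12.54 and 13.08 in Ctrl and 11.41, 12.57 and 12.46 in rCNT. Here rCNT 5 was above Ctrl 2, and the difference of -0.62 ± 0.21 (adjusted p = 0.0419) rested on single samples. It was lost without any of the 3 Ctrl samples or without rCNT 4, where the estimate was nearest to 0, at -0.31 with an adjusted p of 0.187. Sema3c, a guidance factor of capillary cells, did not pass (-0.50 ± 0.20, adjusted p = 0.0795), with rCNT 6 at 13.16 above Ctrl 1 at 12.99.

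Junction and surface adhesion genes fell in 6 of 8 cases. Icam2, an adhesion molecule present on resting endothelium, showed the tightest separation. It was 15.15, 15.09 and 15.44 in Ctrl and 14.47, 14.38 and 14.45 in rCNT, so that the rCNT samples lay within 0.1 of each other and below every other sample of the study. The difference was -0.79 ± 0.14, or 57.7% of Ctrl (adjusted p = 0.000303). Pecam1, the platelet endothelial adhesion molecule CD31, was 11.39, 11.31 and 11.07 in Ctrl and 10.36, 10.35 and 10.67 in rCNT, or 49.6% of Ctrl (-1.01 ± 0.26, adjusted p = 0.0083). Outside rCNT a single sample, Graphite 13 at 9.88, was lower still.

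Cdh5, VE-cadherin of the adherens junction, was 13.25, 13.25 and 13.62 in Ctrl and 12.79, 12.81 and 12.93 in rCNT. Its fall was small, -0.56 ± 0.16 (adjusted p = 0.0131), and was not called without Ctrl 3 (-0.48 at the smallest, adjusted p = 0.0533). Ptprb, the phosphatase VE-PTP that acts on Tek and Cdh5, was 15.15, 15.59 and 15.33 in Ctrl and 13.44, 14.80 and 14.22 in rCNT. Its estimate was -1.15 ± 0.30 (adjusted p = 0.00929, and 0.0552 without Ctrl 2). The rCNT samples spread over more than 1 log2 unit and rCNT 4 was lowest.

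Esam, a tight junction adhesion molecule, was 13.29, 13.19 and 13.11 in Ctrl and 11.60, 12.75 and 12.32 in rCNT (-0.86 ± 0.23, adjusted p = 0.00997). Its lowest samples were rCNT 4 and Graphite 16 (11.90), which shared an array. Without that array the difference was -0.68 and still passed (adjusted p = 0.00434). Podxl, a charged surface protein of the vessel lumen, was 10.44, 10.41 and 10.57 in Ctrl and 9.16, 9.66 and 10.22 in rCNT, again with rCNT 4 lowest (-0.97 ± 0.26, adjusted p = 0.0106, and 0.0521 without rCNT 4).

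Cldn5 and Emcn were the junction and surface genes that did not pass. Cldn5, the tight junction claudin of endothelium, was 15.33, 14.71 and 15.32 in Ctrl and 14.36, 15.15 and 14.30 in rCNT. Ctrl 2 was below rCNT 5, so the groups overlapped (-0.41 ± 0.23, adjusted p = 0.214). Emcn, a sialomucin of capillaries and veins, was 10.28, 10.02 and 10.38 in Ctrl and 9.58, 9.92 and 10.15 in rCNT (-0.44 ± 0.21, adjusted p = 0.14).

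All 4 tyrosine kinase receptors for VEGF and angiopoietin signalling were lower. Tek, the angiopoietin receptor TIE2 that keeps vessels quiescent, was 11.81, 11.72 and 11.67 in Ctrl and 10.19, 10.66 and 10.96 in rCNT. The group means were 11.74 and 10.60, and the fitted difference put rCNT at 37.8% of Ctrl (-1.40 ± 0.31, 95% interval -2.06 to -0.75, adjusted p = 0.00306). Tie1, its partner receptor, was 12.22, 12.28 and 11.87 in Ctrl and 11.73, 11.44 and 11.51 in rCNT, a smaller fall of -0.61 ± 0.16 (adjusted p = 0.00876). Kdr, the main signalling VEGF receptor, was 13.71, 13.94 and 14.04 in Ctrl and 12.86, 13.36 and 13.17 in rCNT. Its fall to 59.2% of Ctrl (-0.76 ± 0.15, adjusted p = 0.000913) was shared in sign by its 10 other spots, which gave -0.75 to -0.33. Flt1, the VEGF receptor that also acts as a decoy, was 13.78, 13.82 and 13.99 in Ctrl and 12.25, 13.43 and 13.06 in rCNT (-0.87 ± 0.19, adjusted p = 0.00307). The array of rCNT 4 carried its lowest value, and without that array the difference was -0.62 (adjusted p = 0.0125).

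Receptors of the BMP9 and ALK1 pathway, which keeps vessels mature and is mutated in hereditary haemorrhagic telangiectasia, were lower in 3 of 4 cases. Acvrl1, the type I receptor ALK1, had the second largest estimate of the 41 genes and the widest spread. It was 14.73, 14.61 and 14.20 in Ctrl and 11.15, 14.10 and 12.69 in rCNT, so that rCNT 5 lay only just below Ctrl 3 and rCNT 4 far below all. The difference was -1.61 ± 0.50 (95% interval -2.66 to -0.57, adjusted p = 0.0258). It was not called without Ctrl 1, Ctrl 2, rCNT 4 or rCNT 6 (adjusted p up to 0.113), and without single samples the estimate ran from -2.52 to -1.15.

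Eng, the endoglin co-receptor, was 13.35, 13.05 and 12.98 in Ctrl and 12.76, 12.11 and 11.99 in rCNT (-0.83 ± 0.21, adjusted p = 0.00794). Without Ctrl 1 or rCNT 5 its adjusted p rose to at most 0.0595. Tmem100, a membrane protein induced by this pathway in arteries, was 13.16, 13.15 and 13.29 in Ctrl and 12.10, 12.64 and 12.62 in rCNT. All rCNT samples were lower by at least 0.5 (-0.83 ± 0.22, adjusted p = 0.0106). Bmpr2, the type II receptor mutated in familial pulmonary hypertension, did not pass: it was 12.30, 12.75 and 12.38 in Ctrl and 12.80, 11.46 and 11.41 in rCNT. Its rCNT samples lay on both sides of Ctrl (-0.69 ± 0.42, adjusted p = 0.259).

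Receptors for peptides and lipids were lower in 4 of 5 cases, and in all 5 every rCNT sample was below every Ctrl sample. Calcrl and Ramp2 form the receptor for adrenomedullin, a peptide that seals the endothelial barrier, and both fell. Calcrl was 9.81, 9.89 and 9.75 in Ctrl and 8.90, 8.94 and 8.82 in rCNT. These rCNT values were the lowest of the study, and the difference was -0.94 ± 0.15, or 52.1% of Ctrl (adjusted p = 0.000157). Ramp2, the accessory protein that gives the receptor its peptide choice, was 15.83, 15.84 and 15.70 in Ctrl and 15.29, 14.85 and 15.23 in rCNT (-0.80 ± 0.15, adjusted p = 0.000582).

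S1pr1, the receptor for sphingosine 1-phosphate that tightens junctions, was 12.99, 12.71 and 13.05 in Ctrl and 12.19, 11.94 and 11.92 in rCNT. It fell to 50.9% of Ctrl (-0.97 ± 0.25, adjusted p = 0.00753, and 0.0528 without Ctrl 1). Ednrb, an endothelin receptor of the lung capillary type called aerocyte, was 10.91, 10.91 and 11.14 in Ctrl and 10.08, 10.23 and 10.71 in rCNT (-0.86 ± 0.28, adjusted p = 0.0344). Its call was lost without any Ctrl sample, rCNT 4 or rCNT 5 (adjusted p up to 0.0905), while its other spot gave -1.53. Aplnr, the apelin receptor of the other capillary type, did not pass (10.25, 9.76 and 9.97 in Ctrl against 9.39, 9.69 and 9.48 in rCNT, -0.51 ± 0.25, adjusted p = 0.164).

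Other surface proteins were lower in 5 of 7 cases. Clec14a, a lectin of vessels under remodelling, was 11.83, 11.71 and 11.78 in Ctrl and 10.73, 10.48 and 10.89 in rCNT, or 44.3% of Ctrl (-1.17 ± 0.20, adjusted p = 0.000375). Its second spot gave nearly the same value, -1.18. Cd93, its relative on the endothelial surface, was 15.09, 14.98 and 15.27 in Ctrl and 14.36, 14.53 and 14.43 in rCNT (-0.63 ± 0.13, adjusted p = 0.00192). Robo4, a guidance receptor that stabilises vessels, was 13.82, 13.55 and 13.73 in Ctrl and 12.90, 12.98 and 13.08 in rCNT (-0.71 ± 0.13, adjusted p = 0.00048). In these 3 genes the Ctrl and rCNT samples were each close together and clearly apart from the other group.

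Plvap, which forms the diaphragms of fenestrae and caveolae, was 15.10, 14.88 and 14.75 in Ctrl and 13.70, 14.50 and 13.83 in rCNT (-0.87 ± 0.22, adjusted p = 0.00797). Gpihbp1, which carries lipoprotein lipase to the capillary lumen, was 13.97, 13.63 and 14.06 in Ctrl and 13.39, 13.35 and 13.22 in rCNT. The fall of -0.46 ± 0.15 (adjusted p = 0.0312) was the smallest among the 27 and was not called without Ctrl 1, Ctrl 3, rCNT 5 or rCNT 6 (adjusted p up to 0.113). Lyve1, the hyaluronan receptor of lymphatic vessels that is also found on some macrophages, was 12.94, 12.49 and 12.54 in Ctrl and 11.66, 12.29 and 12.27 in rCNT. All its rCNT samples were lower, and the difference did not pass (-0.50 ± 0.24, adjusted p = 0.135).

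Car4, a carbonic anhydrase on the surface of aerocytes, had an estimate at 0 (0.00 ± 0.34, 95% interval -0.71 to 0.71). Its values were 13.15, 13.67 and 12.87 in Ctrl and 14.52, 12.83 and 12.91 in rCNT. The single high value came from rCNT 4, whose array mate Graphite 16 was high as well (14.28). Without their array the estimate was -0.38 (adjusted p = 0.284), and the other spot of Car4 gave -0.31 over all samples.

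Of the genes for clotting control and nitric oxide, Thbd fell and Vwf and Nos3 did not pass. Thbd, thrombomodulin, which turns thrombin towards anticoagulation, was 14.70, 14.73 and 15.02 in Ctrl and 13.18, 13.93 and 14.04 in rCNT, or 48.3% of Ctrl (-1.05 ± 0.19, adjusted p = 0.000519). Vwf, the platelet-binding factor stored mainly in endothelium of larger vessels, was 15.08, 14.88 and 15.22 in Ctrl and 14.66, 14.90 and 14.89 in rCNT, with overlap (-0.29 ± 0.13, 95% interval -0.57 to -0.01, adjusted p = 0.129). Nos3, endothelial nitric oxide synthase, was 11.64, 11.59 and 11.70 in Ctrl and 11.37, 11.41 and 11.63 in rCNT (-0.16 ± 0.18, 95% interval -0.54 to 0.22, adjusted p = 0.578). Its 10 other spots gave -0.47 to -0.19, all below 0.

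Of the transcription factors 1 of 5 was called. Erg, the ETS factor that maintains endothelial identity and junctions, was 9.54, 9.22 and 9.65 in Ctrl and 8.47, 8.03 and 7.48 in rCNT. It fell to 42.7% of Ctrl (-1.23 ± 0.32, adjusted p = 0.00938, and at most 0.0577 without Ctrl 1 or rCNT 6), and its other spot gave -0.74. Fli1, a related ETS factor also made by blood cells, was 10.39, 10.22 and 9.99 in Ctrl and 9.04, 10.48 and 10.08 in rCNT, so that a single sample, rCNT 4, was low (-0.31 ± 0.26, adjusted p = 0.423).

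The 3 SOX factors of endothelium stayed near Ctrl after rCNT. Sox18 was 12.05, 11.95 and 11.88 in Ctrl and 12.11, 12.25 and 12.06 in rCNT (0.12 ± 0.22, adjusted p = 0.755). It was the only gene of the set with every rCNT sample above every Ctrl sample, an order that held for 3124 of all 16519 genes. Sox17, which marks arteries, was 10.51, 10.81 and 11.09 in Ctrl and 10.19, 10.67 and 11.06 in rCNT (-0.13 ± 0.20, 95% interval -0.54 to 0.27, adjusted p = 0.674). Sox7 was 11.04, 11.05 and 11.24 in Ctrl and 10.19, 11.27 and 11.18 in rCNT, with rCNT 4 alone below Ctrl (-0.14 ± 0.24, adjusted p = 0.735). The 95% intervals of these genes do not reach the Erg estimate at the spot used (-1.23 ± 0.32) but reach smaller falls. That estimate has its own error, and no test was made between the genes.

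**Figure D2:**
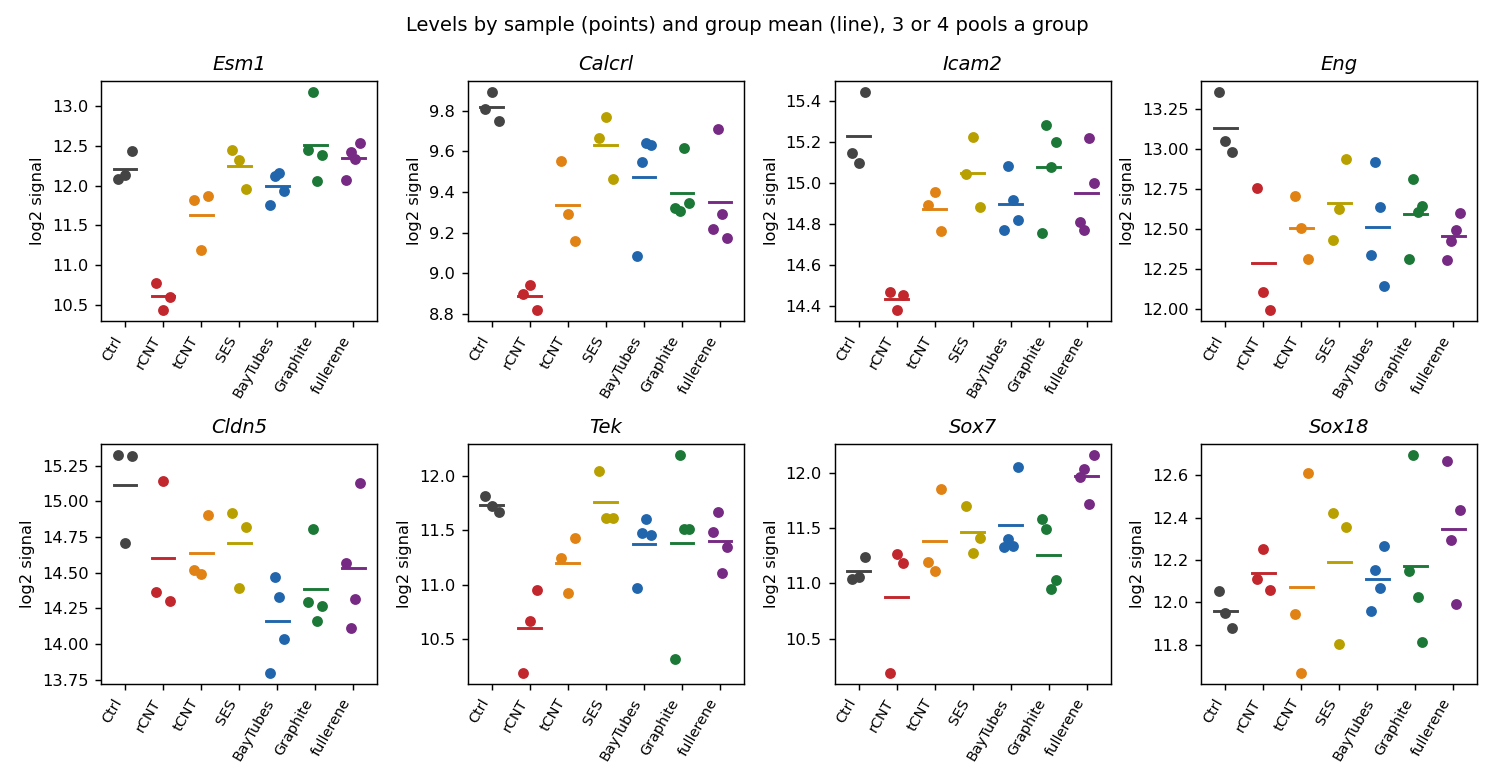
Log2 signal (vertical axes) of 8 genes in each of the 24 samples, by group (horizontal axes); points are samples and lines group means. Esm1, Calcrl and Icam2 have their 3 lowest samples in rCNT, Eng is highest in the 3 Ctrl samples, Cldn5 has its lowest mean after BayTubes, Sox7 its highest after fullerene, and a single Graphite sample is low for Tek.

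By class, 19 of 24 general endothelial genes, 5 of 9 capillary and 2 of 5 arterial and large vessel genes were lower after rCNT. The class medians were -0.80, -0.51 and -0.29. By plain mean level the last 2 classes stood in the reverse order. Capillary genes went from 12.79 in Ctrl to 12.22 in rCNT and arterial genes from 13.04 to 12.40. The classes were set with earlier results of these data known. No test was made between the classes, which overlapped widely: general genes ran from -1.40 to 0.12, capillary genes from -1.05 to 0.00 and arterial genes from -1.61 to -0.13. The 2 arterial genes that fell, Acvrl1 and Tmem100, belong to the BMP9 pathway, whereas Vwf, Nos3 and Sox17 lay between -0.29 and -0.13. The 10 other spots of Nos3 gave -0.47 to -0.19.

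Other markers of the same vessel types, listed apart from the 41 genes, gave counts in the same order. These lists too were chosen with earlier results of these data known, so their counts are not an independent check. Of 12 other capillary markers 10 were lower and 0 higher (median -0.64). Among them were the receptor Adgrf5 (-1.08 ± 0.20, adjusted p = 0.000641), Hpgd, a prostaglandin-degrading enzyme (-0.91 ± 0.18, adjusted p = 0.00128), and Fibin (-0.73 ± 0.17). Of 10 other arterial markers 4 were lower (median -0.28), with Sema3g at -0.83 ± 0.13 and Bmx, a kinase of arterial endothelium, at -0.61 ± 0.11, while the gap junction gene Gja4 was at 0.22 ± 0.17 (adjusted p = 0.364). Of 5 venous markers Ackr1, the chemokine-binding receptor of venules, was higher (1.32 ± 0.17, adjusted p = 2.5e-05) and the others did not pass, with the venous factor Nr2f2 at -0.27 ± 0.16. Of 4 other lymphatic markers 0 passed by limma in either direction, and 0 had an unadjusted p under 0.05, while the defining lymphatic factor Prox1 was below the filter.

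For most of these genes the level after rCNT was also below that after the other materials. In a comparison of rCNT with the mean of the other 5 materials, in which Ctrl samples enter only through the shared dye, array and spread estimates, 27 of the 41 genes were lower and 0 higher, where 12.4% of all genes were lower and 13.8% higher. Of the 27 genes lower against Ctrl, 23 were also lower here, and the others, Egfl7, Eng, Erg and S1pr1, were not (estimates -0.49 to -0.25). Sox7, Sox17, Lyve1 and Sema3c were lower only in this comparison. The largest differences were those of Esm1 (-1.58 ± 0.18, adjusted p = 3.77e-06), Acvrl1 (-1.27 ± 0.37), Ptprb (-0.99 ± 0.22), Thbd (-0.97 ± 0.14, adjusted p = 4.95e-05) and Tek (-0.97 ± 0.23). In Esm1, Thbd, Icam2, Calcrl, Ramp2 and Robo4 all 3 rCNT samples were below all 18 samples of the other materials. This order held for 515 of all 16519 genes.

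Some of these calls depended on single samples. Those of Acvrl1, Lyve1, Sox7, Ednrb, Podxl and Sema3c were lost without rCNT 4, and the last 3 of them also without rCNT 5, with adjusted p up to 0.224. Acvrl1 was also lost without rCNT 6. Plvap, Gpihbp1 and Tie1 were lost without rCNT 5 or rCNT 6, Plvap only without the latter. Pecam1 was lost without any of 16 of the 21 samples, while its estimate stayed between -0.58 and -0.47 (adjusted p up to 0.185). Mmrn2 was lost without any of 13 samples and its estimate was nearest to 0, at -0.12, without rCNT 4 (adjusted p up to 0.604), and Sox17 without any of 6 (adjusted p up to 0.412). For the other 15 genes the call was kept whichever sample was left out. Over the 41 genes rCNT had the lowest mean of the 7 groups in 33, against 29.8% of all genes, and Ctrl had the highest mean in 22, against 16.4% of all genes. The F test for any difference among the 7 groups passed for 21 of 41 genes, against 17.8% of all genes.

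After BayTubes 4 genes were lower and 0 higher, with 1.02% of all genes lower and 2.16% higher, and at an unadjusted p under 0.05, 14 of 41 were lower and 2 higher (Sox7 and Sox17), against 1058 and 1236 of all 16519 genes. Cldn5 showed the clearest difference: it was 13.80, 14.47, 14.33 and 14.04 in BayTubes 17 to 20, all below the lowest Ctrl sample at 14.71. The fall was to 54.6% of Ctrl (-0.87 ± 0.19, adjusted p = 0.0108), whereas after rCNT Cldn5 had not passed. Erg was 8.16, 8.62, 7.52 and 9.01, or 50.0% of Ctrl (-1.001 ± 0.26, adjusted p = 0.0408). Eng was 12.34, 12.92, 12.64 and 12.15 (-0.64 ± 0.17, adjusted p = 0.0488) and Cd93 was 14.47, 14.88, 14.76 and 14.55 (-0.45 ± 0.11, adjusted p = 0.0244). All 4 calls were lost with the array as a fixed term and with only the groups compared. Each was also lost when certain single samples were left out. For Cldn5 these were Ctrl 3 and BayTubes 20 (adjusted p up to 0.0942), and for Erg, Eng and Cd93 they included every Ctrl sample and BayTubes 17 (adjusted p up to 0.235). Nos3 did not pass after BayTubes at the spot used (-0.21 ± 0.15). Its 10 other spots, all dimmer, gave larger falls of -0.45 to -0.29 (SE 0.08 to 0.12).

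After tCNT, SES, Graphite and fullerene 0 of 41 genes passed by limma, with 0.708%, 0%, 1.13% and 0.26% of all genes called in either direction. At an unadjusted p under 0.05, 10 genes were lower and 0 higher after tCNT, 3 and 1 after SES, 12 and 0 after Graphite, and 7 and 2 after fullerene. Over all 16519 genes the lower and higher counts were 522 and 1014 after tCNT, 421 and 326 after SES, 1380 and 2014 after Graphite, and 786 and 1207 after fullerene. The medians of the 41 genes were -0.23, -0.07, -0.23 and -0.13, against medians of all genes of 0.00 to 0.02, and -0.26 after BayTubes. Every sample of the material lay below every Ctrl sample in 12 genes after tCNT, 4 after SES, 12 after BayTubes, 9 after Graphite and 7 after fullerene. Over all genes such an order held for 7.45%, 5.97%, 5.7%, 4.53% and 5.44%. All these comparisons share the same 3 Ctrl samples.

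**Figure D3:**
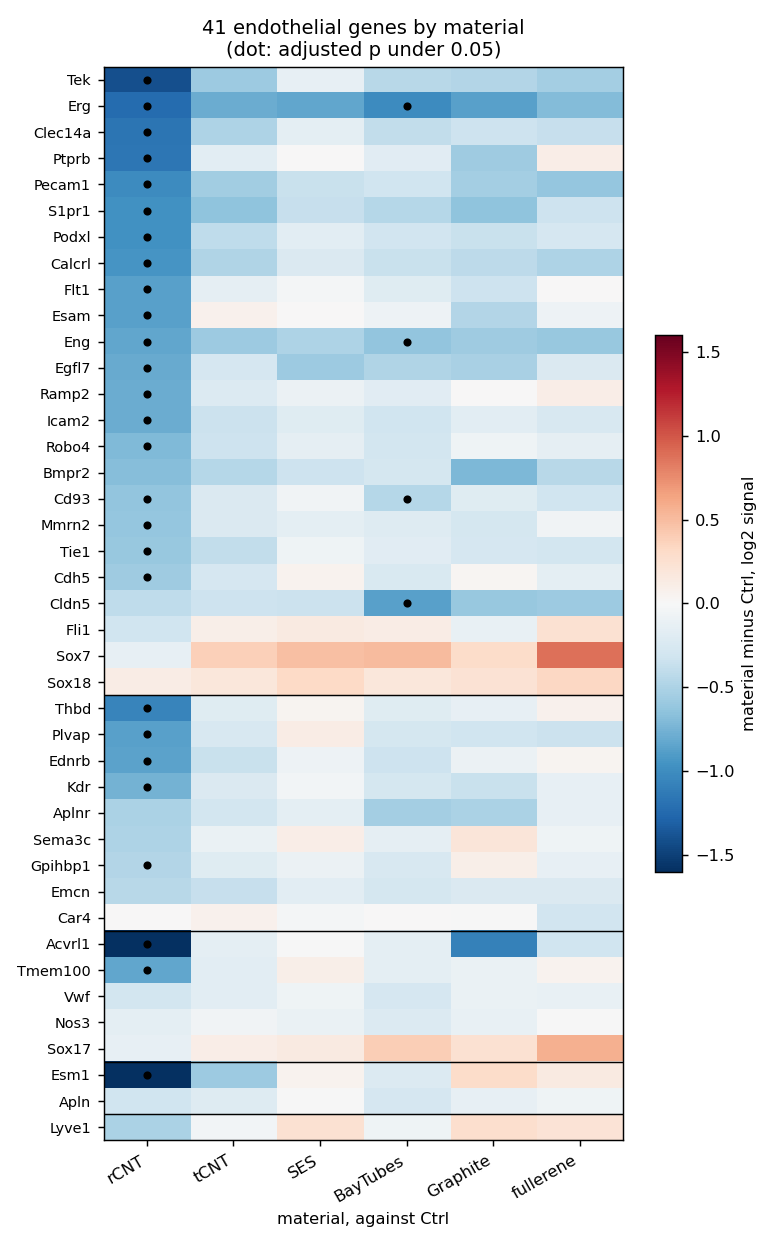
Colour gives the difference from Ctrl in log2 signal for 41 genes (rows, grouped by class) and 6 materials (columns), blue lower and red higher; dots mark an adjusted p under 0.05. The rCNT column holds 27 dots and BayTubes 4, and Sox7 and Sox17 are red after fullerene. The rows of Erg and Eng are blue in every column, as are those of Pecam1 and Clec14a.

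Several genes, Pecam1 and Clec14a among them, had estimates below 0 after every material. Eng and Erg differed from the other genes in the order of their samples. In both, at the spot used, all 21 material samples were below all 3 Ctrl samples, an order found in 0.212% of all genes (35 of 16519). The other spot of Erg did not show this order, with Ctrl 2 at 6.82 and SES 10 at 7.94. Its differences ran from -0.74 ± 0.41 after rCNT to -0.02 ± 0.36 after Graphite. For Eng the differences were -0.83 ± 0.21 after rCNT, -0.58 ± 0.21 after tCNT, -0.49 ± 0.20 after SES, -0.64 ± 0.17 after BayTubes, -0.57 ± 0.19 after Graphite and -0.61 ± 0.19 after fullerene. For Erg they were -1.23 ± 0.32, -0.80 ± 0.32, -0.83 ± 0.31, -1.001 ± 0.26, -0.87 ± 0.28 and -0.69 ± 0.30 in the same order. Only those after rCNT and BayTubes passed the threshold, and the comparison of rCNT with the other materials did not pass for Eng (-0.25 ± 0.16, adjusted p = 0.252) or for Erg (-0.39 ± 0.24, adjusted p = 0.241). These orders rest on the same 3 Ctrl samples, and their causes were not tested.

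Calcrl and Egfl7 were below every Ctrl sample after 5 materials, and Tek and Clec14a after 4. How many of all genes had such an order after 4 or 5 materials was not counted. These orders rest on the same 3 Ctrl samples. Calcrl was 9.55, 9.29 and 9.16 after tCNT, 9.32, 9.30, 9.62 and 9.35 after Graphite, and 9.22, 9.71, 9.29 and 9.17 after fullerene. These values lie between the Ctrl and rCNT samples (-0.48 ± 0.15, -0.42 ± 0.13 and -0.50 ± 0.14, adjusted p = 0.183, 0.0985 and 0.194). After SES it was 9.67, 9.77 and 9.47, of which SES 11 exceeded Ctrl 3. Calcrl differed between rCNT and the other materials (-0.54 ± 0.11, adjusted p = 0.00111). The set thus held genes with a graded order, such as Calcrl, and genes low after rCNT alone in their estimates, such as Ramp2, which was -0.22 ± 0.14 after tCNT and between -0.18 and 0.10 after SES, BayTubes, Graphite and fullerene.

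Sox7 and Sox17 had their highest levels after fullerene. Sox7 was 11.96, 12.03, 11.72 and 12.16 in fullerene 21 to 24, all above Ctrl (11.04, 11.05 and 11.24), and the estimate was 0.88 ± 0.22 (95% interval 0.42 to 1.34). It did not pass over all genes (adjusted p = 0.139). It did pass with slide in the fit (adjusted p = 0.0402) and with array 2, that of rCNT 4 and Graphite 16, left out (adjusted p = 0.0363). Sox17 was 11.38, 11.13, 11.52 and 11.21, also above every Ctrl sample (0.56 ± 0.18, adjusted p = 0.247). Every fullerene sample was above every Ctrl sample in 3 of the 41 genes and in 1846 of all 16519 genes. Sox7 was above Ctrl after BayTubes as well (11.33, 11.40, 11.34 and 12.05), by 0.51 ± 0.20 (adjusted p = 0.206). Every BayTubes sample was above every Ctrl sample in 1 of the 41 genes and in 1081 of all 16519 genes. Sox18, the third member of this SOX subgroup, was between 0.12 and 0.33 in all 6 comparisons and passed in 0 of them, with no unadjusted p under 0.05.

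Ligands and partners of the same pathways were read from lists beside the 41 genes. Among 8 other VEGF pathway genes, the ligand Vegfa (-0.74 ± 0.16, adjusted p = 0.00274), the ligand Vegfd (-0.52 ± 0.16, adjusted p = 0.0239) and 1 further gene were lower after rCNT, and the placental growth factor Pgf was higher (0.48 ± 0.12, adjusted p = 0.00607). Vegfa is made mainly by alveolar type 1 cells in lung. Of 4 other genes of the angiopoietin pathway, both main Tek ligands were lower: Angpt1, the activating ligand of pericytes, by -0.59 ± 0.14 (adjusted p = 0.00442) and Angpt2, made by endothelium, by -1.04 ± 0.17 (adjusted p = 0.000163). Angpt2 was also lower after BayTubes (-0.57 ± 0.14, adjusted p = 0.0228). Of 13 other genes of the BMP9 pathway, Bmp6 and Smad9 were lower and the ligand Gdf2 (BMP9) did not pass (-0.34 ± 0.19, adjusted p = 0.204).

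Of 6 other nitric oxide pathway genes 4 were lower after rCNT: the caveolar protein Cav1 (-0.91 ± 0.25, adjusted p = 0.0133), the guanylate cyclase subunit Gucy1a1 (-0.71 ± 0.14, adjusted p = 0.000865), the kinase Prkg1 (-0.74 ± 0.17, adjusted p = 0.00367) and 1 further gene. Of 10 Notch genes Hey1 and Notch4 were lower, and the ligand Dll4 did not pass (-0.52 ± 0.77). Of 5 shear stress genes Klf2, the flow-induced factor, was lower (-0.95 ± 0.30, adjusted p = 0.0289), as was Thsd1. Among 7 ligands and enzymes for the adrenomedullin, apelin, endothelin and sphingosine 1-phosphate receptors, 0 passed after rCNT by limma and Adm was at 0.14 ± 0.22, while Adm was lower after BayTubes (-0.92 ± 0.18, adjusted p = 0.00553).

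Some vessel wall genes rose. Of 5 genes of endothelial activation, the selectin Selp (1.23 ± 0.17, adjusted p = 4.57e-05) and its ligand Selplg (0.63 ± 0.21, adjusted p = 0.0398) were higher after rCNT. Of 6 genes of clotting and fibrinolysis, Procr, the protein C receptor that works with Thbd, was higher (0.85 ± 0.15, adjusted p = 0.00043), and tissue factor F3 did not pass (0.54 ± 0.33, adjusted p = 0.257). Selp is also made by megakaryocytes and Selplg by leukocytes, so their source in whole lung RNA is not given by these data. Sele, another selectin of activated endothelium, was below the filter.

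Markers of other lung cells moved alongside. Alveolar type 1 markers, which neighbour the capillaries, were lower in 5 of 9 and higher in 0, with Ager at -0.94 ± 0.23 (adjusted p = 0.00633), and their mean log2 level was 13.60 to 13.64 in Ctrl and 12.91 to 13.17 in rCNT. Leukocyte markers were higher in 3 of 9 and lower in 0, with Cd52 at 1.16 ± 0.20 (adjusted p = 0.000309) and Ptprc at 0.17 ± 0.28 (adjusted p = 0.712), and their mean was 11.61 to 12.02 in Ctrl and 12.26 to 12.81 in rCNT. Cell cycle genes were higher in 10 of 10, with Cdk1 at 2.60 ± 0.29 (adjusted p = 4.95e-06) and means of 7.96 to 8.32 against 10.44 to 10.59. The part of such shifts in cell makeup in the results on endothelial genes was not tested.

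**Figure D4:**
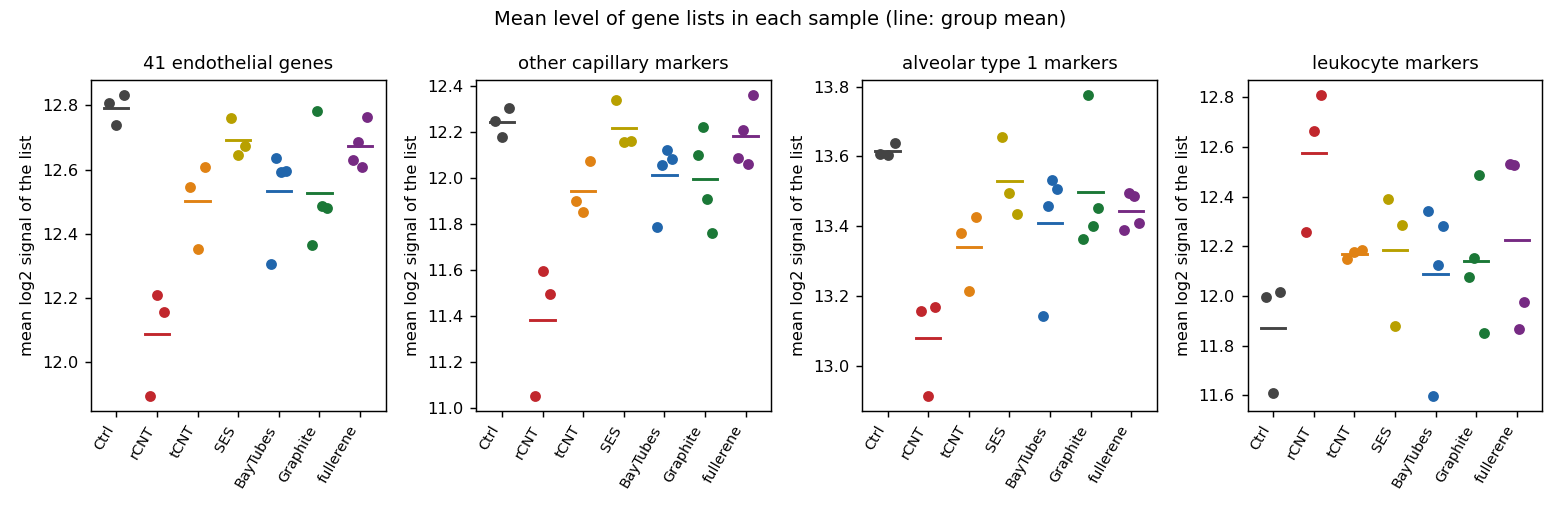
Mean log2 signal (vertical axes) of 4 gene lists in each of the 24 samples by group (horizontal axes); points are samples and lines group means. The 41 endothelial genes, other capillary markers and alveolar type 1 markers have their lowest group mean in rCNT, and leukocyte markers their highest.

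Markers of mural and airway cells gave mixed counts after rCNT. Of 10 pericyte and smooth muscle markers 2 were higher (Acta2 at 0.97 ± 0.19 and Tagln at 0.61 ± 0.13) and 1 lower (Notch3 at -0.47 ± 0.14), and their mean was 11.89 to 12.16 in Ctrl and 11.97 to 12.13 in rCNT. Of 8 alveolar type 2 markers 1 was lower and 1 higher, with Sftpc at -0.29 ± 0.21 (adjusted p = 0.353). Of 7 platelet markers Pf4 was higher (0.80 ± 0.19, adjusted p = 0.00566), and their mean was 7.37 to 7.81 in Ctrl and 7.51 to 7.74 in rCNT. Of 8 fibroblast markers 1 was lower and 1 higher, of 4 club cell markers 1 was lower, and of 9 heart muscle markers 0 passed by limma, with 1 at an unadjusted p under 0.05.

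Levels of some genes followed the slide or the array. Bmpr2 lay between 12.19 and 12.81 in the 12 samples of slide 1, with a median of 12.65, and between 10.90 and 12.38 on slide 2 and 11.46 and 12.00 on slide 3. Each of the 3 Ctrl samples was at or above 12.30, and outside slide 1 the other samples were at or below 12.13. Car4 had its highest values on slide 1 (median 13.48, against 12.90 on slide 2 and 12.88 on slide 3). Acvrl1 was lowest in rCNT 4 (11.15) and Graphite 16 (11.64), which shared an array, and next in rCNT 6 (12.69), which shared an array with Graphite 14 (13.54). The part of the slide and the array in these differences was not tested.

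**Figure D5:**
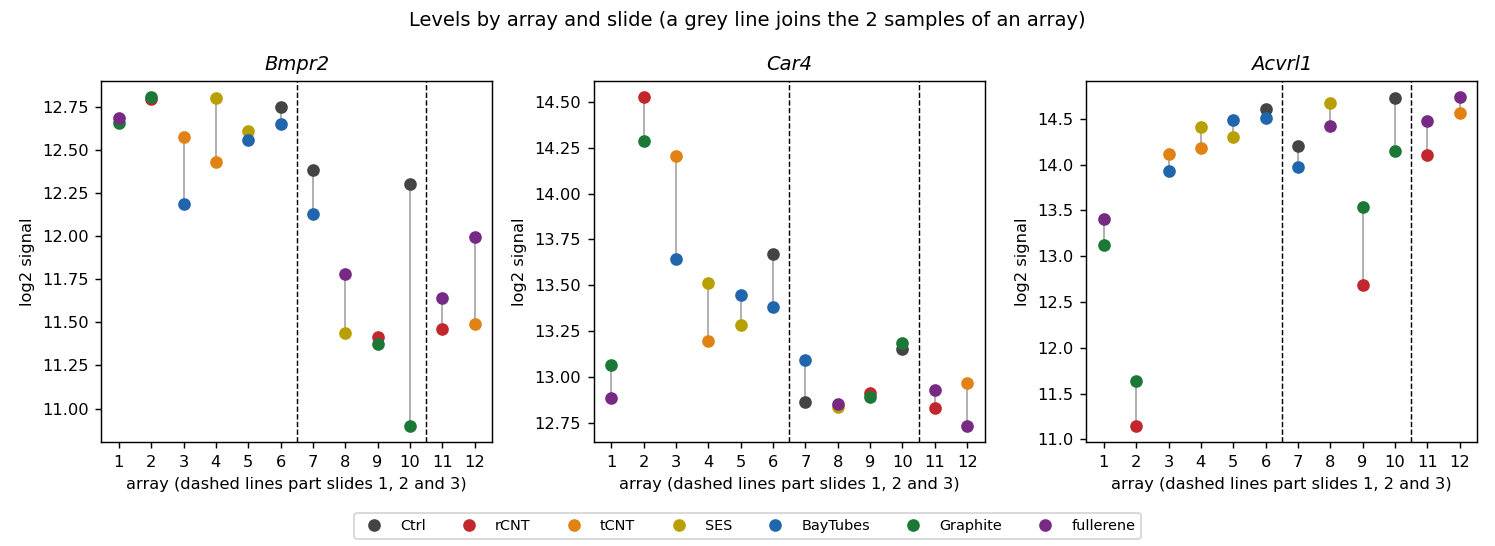
Log2 signal (vertical axes) of Bmpr2, Car4 and Acvrl1 by array (horizontal axes), coloured by group, with dashed lines between slides and grey lines joining the samples of an array. Bmpr2 is higher on slide 1, Car4 is highest and Acvrl1 lowest in rCNT 4 and Graphite 16, on array 2.

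With slide as a term in the fit, 28 of 41 genes were lower after rCNT, among them all 27. Slide 3 held no Ctrl sample. Within slide 1, which held a single sample of each group, rCNT 4 and Ctrl 2, all 27 estimates were below 0. The 20 of 41 genes called lower there rest on the spread of the other groups' samples, and rCNT 4 had the largest residual SD of all samples. Within slide 2, rCNT 6 against Ctrl 1 and Ctrl 3, the fit with a dye term gave the opposite sign for 8 of the 27: Pecam1 (1.07), Tek (1.13), Podxl (1.05), Ednrb (0.69), Tmem100 (0.61), Clec14a (0.46), Mmrn2 (0.15) and Ramp2 (0.08). On that slide rCNT 6 carried cy5 and both Ctrl samples cy3, and Graphite 13, also cy5 there, was low for Pecam1, Tek, Podxl and Mmrn2. Without a dye term all 27 estimates within slide 2 were below 0, from -2.06 to -0.55, with 2 called. There too rCNT 6 was the only rCNT sample, assumed to vary like the other groups. With array 2 left out, all 27 stayed below 0 and 25 genes of the 41 were called lower.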

How the data were processed

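Lung RNA of 24 pools was hybridised on 12 Agilent arrays. The deposited log2 values are the authors' normalized signals, made with Agilent Feature Extraction and limma per the submitters' processing notes, which give no versions. Sorted values of samples differ by at most 0.0856, as after quantile normalization. Of the spots, 31465 had 1 gene name (GRCm38.p6 table), and the spot with the highest mean stood for a gene. Genes were tested if above a sample's 40th percentile in 3 samples. limma 3.58.1 (R 4.3.3, statmod 1.5.0) was fitted to all 16519 genes with group and dye terms and the array as a random block (correlation 0.399). The adjusted p is Benjamini-Hochberg over all genes in a comparison, 2-sided, with a threshold of 0.05, and ± gives the SE. The script was tested on simulated data. All 41 genes are reported, and from other lists up to 3 called genes with the smallest p and the first-listed, defining gene were named. The 41 genes and the lists were chosen with earlier results of these data known. Fits of 2 groups use the array correlation of the full fit. The filter, spot, scaling, array, slide and dye settings and each sample left out were tried as alternatives. Those within a slide without a dye term were added after seeing the data.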

Additional observations from a re-analysis of the deposited data

Results flagged for a closer look

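Among 123 sets of 4 samples (41 genes in BayTubes, Graphite and fullerene), 9 had a sample far from the other 3 by Dixon's criterion, and chance gives about 1 in 20. BayTubes 17 was low for Ramp2 (15.35, the others 15.69 to 15.75), Calcrl (9.09), Robo4 (13.18) and Podxl (9.98). Graphite 13 was low for Podxl (9.28) and Mmrn2 (11.95). The high samples were Graphite 15 for Calcrl (9.62), BayTubes 20 for Sox7 (12.05) and BayTubes 18 for Mmrn2 (12.83). The causes were not tested.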

How the results depend on the processing

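No paired analysis by replicate number was possible because the groups share none; samples of an array are paired in the setting with the array as a fixed term. Of the 41 genes, 27 were called after rCNT, and the count was 12 with the array as a fixed term, 8 with only the groups compared, 4 within slide 2 (3 lower and 1 higher), and 16 and 2 within slides 1 and 2 without a dye term. Within slide 2 with a dye term Pecam1 (1.07), Tek (1.13), Ramp2 (0.0791), Ednrb (0.690), Tmem100 (0.613), Clec14a (0.457), Podxl (1.05) and Mmrn2 (0.151) were above 0. For BayTubes (4 called) the count was 1 without the array block, 2 without the filter, 2 with the second brightest spot, 7 (all higher) within slide 2, and 0 with the array as a fixed term, the threshold of 0.01, only the groups compared, within slide 1, or within either slide without a dye term. Graphite had 1 with slide as a fixed term and 4 within slide 2. Fullerene had 1 with slide as a fixed term, 5 within slide 2 and 1 without array 2. For rCNT against the other 5 materials (27 called) the count was 9 with the array as a fixed term and 16 at 0.01. The F test (21 called) gave 12 without the array block, 4 with the array as a fixed term and 9 at 0.01. With single samples left out, the counts ran from 20 to 25 for rCNT, 0 to 4 for BayTubes, 0 to 1 for tCNT and Graphite, 19 to 28 for rCNT against the other materials and 14 to 23 for the F test. The causes were not tested. With 3 or 4 pools a group the median SE against Ctrl was 0.13 to 0.16, so small differences could not be called.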
